A study of Mus musculus with 8 samples.

Results

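Fatty acid oxidation and mitochondrial maturation genes were examined as a set of 42 named genes in E15.5 mouse ventricles, among the 53465 genes of the deposited expected-count table. They were chosen by symbol, as genes of fatty acid uptake, activation, carnitine transport, beta-oxidation, electron transfer, lipid droplets and PPAR, ERR and PGC-1 regulators. The rule uses no measured value, although the list was drawn up with earlier results of these data known. After genes with low counts were set aside, 15388 genes were tested, and these included 41 of the 42. The gene left out was Ucp3. The comparison asks how these genes stand when endothelial Nrg1, which encodes the growth factor neuregulin-1, is targeted for deletion.

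RNA-seq covered 4 control (WT) libraries and 4 libraries labelled Flox, each made from polyadenylated RNA at embryonic day 15.5 and, per the labels, from 1 mouse ventricle. The Flox libraries are labelled with the genotype Nrg1flox;Cdh5-CreERT2, in which a tamoxifen-inducible Cre recombinase is driven by the promoter of Cdh5, a gene of endothelial cells, and is meant to excise floxed Nrg1 sequence. The driver acts in endothelium, whereas RNA came from ventricle tissue, where most fatty acid oxidation takes place in cardiomyocytes. The strain, the time and dose of tamoxifen, the floxed exons, and whether WT embryos carried Cre, a floxed allele or received tamoxifen are not given in the sources used here. Nothing says that the 4 samples of a group came from separate embryos, so p-values measure the spread between these samples.

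Fatty acid oxidation breaks acyl chains into acetyl-CoA inside mitochondria. Fatty acids are taken up, bound to coenzyme A, passed across the mitochondrial membranes as carnitine esters and shortened by a repeated cycle of dehydrogenation, hydration, dehydrogenation and thiolysis, and the electrons enter the respiratory chain through the electron transfer flavoprotein. The fetal heart relies largely on glucose and lactate, and the enzymes of this route are known to rise as cardiomyocytes mature around birth. PPAR and ERR nuclear receptors, with the coactivators PGC-1alpha and PGC-1beta, are known to drive that rise.

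Because these receptors bind DNA at copies of a shared core, AGGTCA, the RefSeq promoter windows (GRCm38.p6, 250 bases before to 50 after a start site) of the members were searched for it on both strands. Of the 42 genes, 35 matched a window by symbol. The core occurred in the windows of 7 of the 35 (Acadm, Acadvl, Cd36, Cpt1a, Echs1, Plin5 and Ucp3). Counted by window it was in 18.6% of the members' 43 windows and in 16.3% of all 32851 windows. The longer ERR core AAGGTCA, which contains AGGTCA, was found in Acadm only, against 4.72% of all windows. No member window held TCAAGGTCA, the full ERR element, or AGGTCANAGGTCA, the tandem PPAR element, which were in 0.423% and 0.0396% of all windows. The GC box GGGCGG was in windows of 25 of the 35 members (71.4%). Counted by window it was in 65.1% of the members' windows and in 35.7% of all windows. A match is a description of these letters and not evidence of binding.

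Promoter stretches of 4 members with the core are shown, those of 3 enzymes of the route (Cpt1a, Acadm and Acadvl) and of Ucp3, the member that was hardly detected. Each is printed 5′ to 3′ on the strand of the gene, begins 250 bases before the RefSeq start site and stops at the start site or at the first base of an annotated exon. Capitals mark AGGTCA or its reverse complement TGACCT, and the copy in Acadm is the one with the longer ERR core.
Cpt1a chr19:3323051-3323284 (plus strand): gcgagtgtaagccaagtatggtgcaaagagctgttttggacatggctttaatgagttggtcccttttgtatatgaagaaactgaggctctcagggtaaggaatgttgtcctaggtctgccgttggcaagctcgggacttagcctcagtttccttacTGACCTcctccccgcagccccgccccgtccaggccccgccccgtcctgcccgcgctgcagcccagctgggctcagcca
Acadm chr3:153944644-153944893 (minus strand): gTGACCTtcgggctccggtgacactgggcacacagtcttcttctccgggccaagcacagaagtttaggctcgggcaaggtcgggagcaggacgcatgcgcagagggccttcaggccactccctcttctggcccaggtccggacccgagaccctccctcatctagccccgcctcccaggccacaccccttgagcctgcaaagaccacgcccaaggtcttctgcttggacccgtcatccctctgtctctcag
Acadvl chr11:70015429-70015678 (minus strand): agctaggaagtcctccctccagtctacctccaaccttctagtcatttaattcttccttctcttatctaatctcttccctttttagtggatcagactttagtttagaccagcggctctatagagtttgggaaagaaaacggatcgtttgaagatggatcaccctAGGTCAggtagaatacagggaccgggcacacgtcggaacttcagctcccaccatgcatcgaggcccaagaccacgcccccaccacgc
Ucp3 chr7:100472741-100472989 (plus strand): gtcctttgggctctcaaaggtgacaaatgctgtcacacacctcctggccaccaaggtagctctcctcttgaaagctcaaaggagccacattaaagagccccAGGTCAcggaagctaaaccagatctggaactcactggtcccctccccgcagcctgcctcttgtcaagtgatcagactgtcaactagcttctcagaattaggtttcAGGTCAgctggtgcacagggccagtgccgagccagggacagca

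Some features of the libraries bear on every value. Totals ran from 16761763 to 24144272 expected counts. Nrg1 was at 5.46, 4.64, 4.08 and 5.31 CPM (the expression unit used here, counts relative to library size with TMM scaling) in WT_1 to WT_4 and at 6.82, 6.33, 6.16 and 5.36 CPM in the libraries labelled Flox_1 to Flox_4, a log2 fold change (labelled Flox minus WT, as throughout) of 0.34 with a standard error (SE) of 0.12 and an edgeR false discovery rate (FDR) of 0.311. Thus Nrg1 was not lower in the labelled Flox libraries, which goes against the label, and the gene total does not single out the floxed exons. Xist and Y-linked transcripts were both present, with over 20 counts each, in 7 of the 8 libraries, which goes against a source in the ventricle of a single embryo. Xist was at 134, 206, 140 and 0.176 CPM in WT_1 to WT_4 and at 327, 282, 263 and 103 CPM in labelled Flox_1 to Flox_4. The summed level of 4 Y-linked genes was 69.3 to 171 CPM in WT and 42.9 to 120 CPM in labelled Flox libraries. Both ranges overlapped, but Xist tended higher and the Y-linked sum lower in labelled Flox libraries. Sex is thus not separated from the group in fits without a sex covariate. The labelled tissue was checked on 13 ventricular cardiomyocyte genes, which were all tested and none called, and their summed level was 54498 to 59862 CPM in WT and 53357 to 60464 CPM over the labelled Flox libraries. Liver genes (6 listed) summed to at most 2.29 CPM, and adipocyte genes (6 listed) to at most 5.96 CPM with Lep at 0 in every library. Endothelial genes summed to 1529 to 1569 CPM in WT and 1420 to 1528 CPM over the labelled Flox libraries, without overlap but by a small margin. Of the 12 endothelial genes, 10 had estimates below 0 and 2 above, among the latter Emcn at a log2 fold change of 0.18. An unadjusted edgeR p below 0.05 was seen for 7 of the 12 (58.3%), 6 lower and 1 higher, against 10.5% of all tested genes. Groups did not overlap for 5 of them, all lower (41.7%), against 6.05% of all tested genes. At an edgeR FDR below 0.1 there were 3, all lower, against 1.23% of all tested genes, and at 0.05 there were 0. The sums of 5 smooth muscle genes did not overlap either and were higher in labelled Flox libraries, although 3 of the 5 had estimates below 0. Of 6 atrial genes all had estimates below 0, with a median log2 fold change of -0.18. An unadjusted p below 0.05 was seen for 2 of them, Dkk3 and Kcnj3, of which Kcnj3 was called lower (edgeR FDR = 0.0261), while their sum, most of it Myl4, overlapped between groups (1650.1 to 1858 and 1639 to 1783 CPM). In ventricle RNA, fewer cells of a type and less RNA per cell cannot be told apart.

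In WT ventricles the members spanned 4 orders of magnitude per kilobase of exon, the scale on which genes are compared with each other here. Fabp3, the small heart protein that carries fatty acids through the cytosol, was highest at 609.9 CPM per kb. It was followed by Acadl, the long-chain acyl-CoA dehydrogenase, at 332, Acaa2, the thiolase of the last step, at 228, and the flavoprotein subunits Etfb and Etfa at 191 and 146 CPM per kb. These 5 genes and the next, Cpt1b at 108, did not overlap with their neighbours in the order over the 4 WT libraries. Cpt1b, the muscle form of the enzyme that commits fatty acids to mitochondria, stood well above Cpt1a, the form of liver and fetal tissues, at 12.9 CPM per kb in place 30. Neighbours from Echs1 (place 21) to Slc25a20 (place 29) overlapped each with the next, as did Acadm with Acadvl, Acads with Hadhb, and Hadhb with Eci1. Lower down, the WT values of Cpt1a and Ucp2 overlapped, as did those of Esrrg, Acsl4 and Dgat2 in turn, of Mlycd and Ppargc1b, and of Ppard, Ppara and Slc27a1 in turn. Acsl3 and Acot2 (place 19) overlapped as well, and all other neighbours were apart. The receptors and coactivators were lower, from Ppargc1a at 20.5 and Esrra at 18.8 to Ppard at 3.45, Ppara at 3.34 and Esrrb at 2.28 CPM per kb. Plin5, a lipid droplet protein of oxidative muscle, and Ucp3, the muscle uncoupling protein, were last at 0.318 and 0.0568 CPM per kb. Per-kb levels rest on all annotated exons of a gene, not on the transcripts present.

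**Figure D1:**
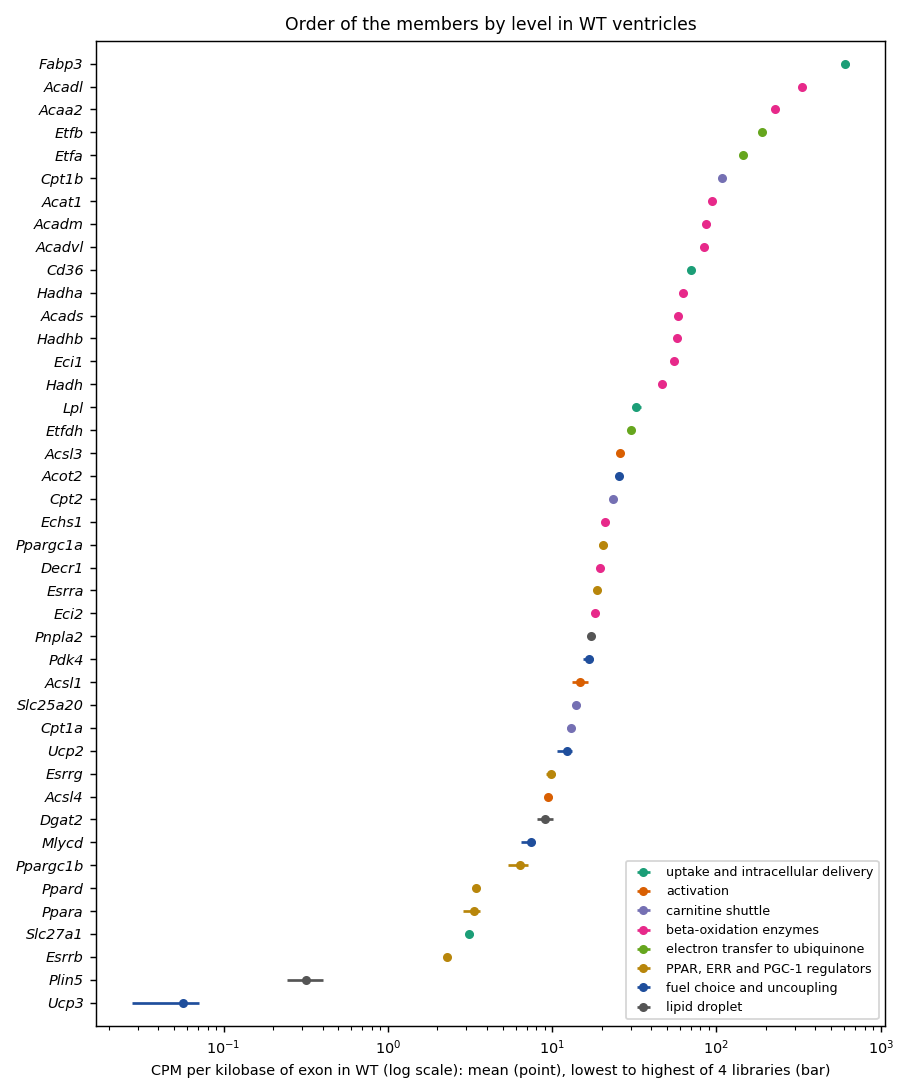
Level of the 42 members in WT ventricles in CPM per kilobase of exon (log scale), in order, with points for the mean of 4 libraries, bars from the lowest to the highest library and colours for the role. Fabp3 leads at 610 CPM per kb, most beta-oxidation enzymes lie in the upper part of the order, and Plin5 and Ucp3 stand far below the rest.

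No member was called between the groups. At an edgeR FDR below 0.05 the count was 0 of 41 in either direction, where 81 of the 15388 tested genes passed (0.526% of all), 48 higher (0.312%) and 33 lower (0.214%). The count also stayed at 0 at FDR below 0.1, which 1.23% of all genes passed (0.617% higher and 0.617% lower), and with DESeq2, limma voom and the edgeR likelihood ratio test. At an unadjusted p below 0.05, 2 members were found, or 4.88%, 1 higher and 1 lower, against 10.5% of all tested genes (5.13% higher and 5.41% lower). Fitted values lay above 0 for 22 members and below 0 for 19. The median log2 fold change was 0.0081 over the members and -0.0012 over all tested genes, and the median absolute value was 0.035 and 0.059, respectively.

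The precision of these estimates can be stated. The median SE was 0.045 on the log2 scale for the members and 0.065 for all tested genes, from 4 libraries a group. The 95% confidence interval of the log2 fold change lay within 0.15 of 0 (a rise of 11.0%) for 23 members, within 0.2 (14.9%) for 32 and within 0.5 (41.4%) for 40. Acat1, the mitochondrial acetoacetyl-CoA thiolase, had the interval that stayed closest to 0, from -5.97% to 5.24%. The interval of Plin5 reached farthest, from -50.7% to 19.3%, and that of Ppargc1b came next with -1.61% to 28.3%. A missed threshold does not show equal levels.

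**Figure D2:**
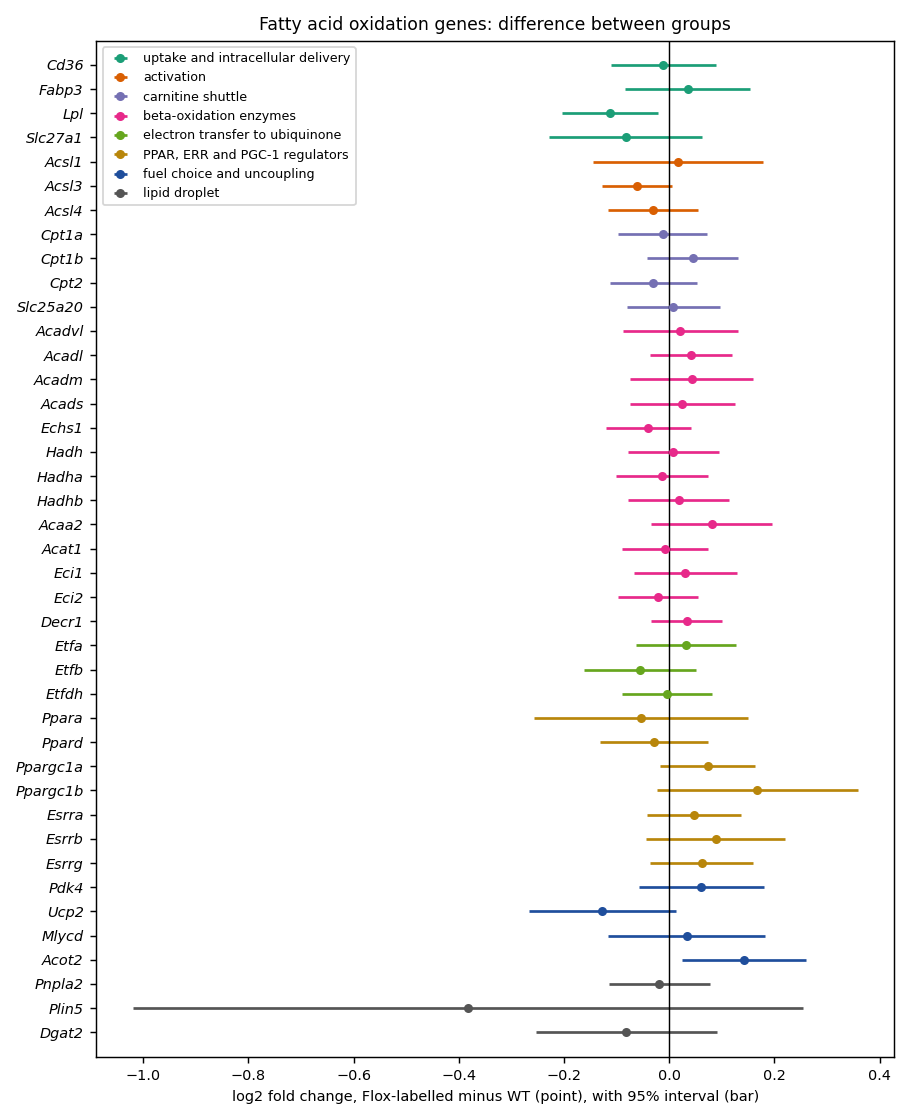
Log2 fold change of the 41 tested members (labelled Flox minus WT, n = 4 libraries a group), points with 95% confidence interval bars, coloured by role. All intervals include 0 except those of Lpl and Acot2, neither of which passed FDR 0.05, and the bar of Plin5 is by far the widest.

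Genes of fatty acid uptake and delivery lay on balance slightly below 0, with a median log2 fold change of -0.047 over 4 genes and 0 called. Lpl, the lipoprotein lipase that frees fatty acids from circulating triglycerides, was at 329, 338, 365 and 328 CPM in WT_1 to WT_4 and at 312, 327, 296 and 324 CPM in the libraries labelled Flox_1 to Flox_4. Its groups did not overlap, with WT_3 the highest and labelled Flox_3 the lowest of the 8. The difference (log2 fold change -0.11, SE 0.042, edgeR FDR = 0.358, unadjusted p = 0.0205) did not pass. Groups that do not overlap were seen for 2 of 41 members, 1 in each direction, and for 6.05% of all tested genes (3.07% higher and 2.98% lower). Without WT_3 the log2 fold change of Lpl was -0.076. Lpl lies at chr8:68880491-68907448 (GRCm38). Cd36, the fatty acid translocase of the cell surface, was at 247, 249.9, 259 and 252 CPM over the WT libraries and 254, 273, 242 and 230.3 CPM over the labelled Flox libraries, in numbered order. The labelled Flox values lay on both sides of the WT values (log2 fold change -0.011, SE 0.046, edgeR FDR = 0.967). Fabp3 was at 498, 476, 528 and 506 CPM over the WT libraries and 535, 558, 509 and 454 CPM over the labelled Flox libraries. The groups overlapped, with labelled Flox_2 highest and labelled Flox_4 lowest (log2 fold change 0.035, SE 0.055, edgeR FDR = 0.892). Slc27a1, the transport protein FATP1, gave a log2 fold change of -0.083 (SE 0.067, edgeR FDR = 0.736).

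The acyl-CoA synthetases, which couple fatty acids to coenzyme A, had a median of -0.031 over 3 genes, with 0 called. Acsl1, the main form of adult heart, was at 149.9, 139, 173 and 155 CPM in WT_1 to WT_4 and 159, 168, 165 and 132 CPM in the libraries labelled Flox_1 to Flox_4. It varied more within each group than between them, with WT_3 highest and labelled Flox_4 lowest (log2 fold change 0.016, SE 0.075, edgeR FDR = 0.973). Acsl3, a form of the endoplasmic reticulum and lipid droplets that is prominent in fetal heart, was at 110.4, 115, 109.8 and 115 CPM over the WT libraries and 109.9, 106, 107 and 109 CPM over the labelled Flox libraries. The values of Acsl3 were tight, and the groups overlapped (log2 fold change -0.061, SE 0.031, edgeR FDR = 0.523). Acsl4, which prefers arachidonic acid, had a log2 fold change of -0.031 (SE 0.039). The ratio of Acsl1 to Acsl3 CPM within a library ran from 1.20 to 1.58 in WT and from 1.21 to 1.58 in labelled Flox libraries. On the log2 scale it averaged 0.45 ± 0.16 (SD, n = 4) and 0.52 ± 0.17 (SD, n = 4), a difference of 0.073 (two-sided exact permutation p = 0.486, adjusted over 2 ratios 0.486, smallest possible p 0.0286).

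The carnitine shuttle showed a median log2 fold change of -0.0025 over its 4 genes, none of them called. Cpt1a was at 96.6, 94.2, 103 and 102 CPM in WT_1 to WT_4 and at 97.1, 92.9, 102 and 101 CPM in labelled Flox_1 to Flox_4, so that the ranges nearly coincided (log2 fold change -0.012, SE 0.039, edgeR FDR = 0.956). Cpt1b was at 362, 359, 370.0 and 368 CPM over the WT libraries and at 386, 383, 391 and 343 CPM over the labelled Flox libraries. Labelled Flox_1 to Flox_3 lay above every WT library and labelled Flox_4 below every one (log2 fold change 0.044, SE 0.040, edgeR FDR = 0.773). Annotated exons of Cpt1b share 81.4% of their bases with Gm44502 on the same strand, a gene with no row in the table, so reads of the pair cannot be separated. Cpt2, which returns acyl groups to coenzyme A on the matrix side, was at 54.7, 57.5, 55.1 and 56.6 CPM over the WT libraries and at 55.8, 57.0, 55.0 and 51.0 CPM over the labelled Flox libraries. The groups overlapped, with labelled Flox_4 lowest (log2 fold change -0.030, SE 0.038, edgeR FDR = 0.856). Slc25a20, the carnitine-acylcarnitine exchanger, had a log2 fold change of 0.0074 (SE 0.041). The ratio of Cpt1b to Cpt1a CPM was 3.60 to 3.81 in WT and 3.41 to 4.13 in labelled Flox libraries. Its log2 mean was 1.88 ± 0.042 (SD, n = 4) in WT and 1.94 ± 0.12 (SD, n = 4) in labelled Flox libraries, a difference of 0.054 (two-sided exact permutation p = 0.400, adjusted over 2 ratios 0.486). In both ratios labelled Flox_4 was the lowest of its group.

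For the 13 beta-oxidation enzymes the median was 0.021 (log2 fold change), with 9 above 0, 4 below and 0 called. Acadvl, the very-long-chain dehydrogenase of the inner membrane, was at 228, 221, 233 and 226 CPM in WT_1 to WT_4 and 243, 248, 226 and 206 CPM in labelled Flox_1 to Flox_4. The groups overlapped (log2 fold change 0.021, SE 0.050, edgeR FDR = 0.936), and 42.9% of the exonic bases of Acadvl are shared with Dvl2 on the opposite strand, while the strand setting of the counting is not given in the sources used here. Acadl was at 659.6, 669, 677 and 659 CPM over the WT libraries and 690.1, 715, 700.5 and 636 CPM over the labelled Flox libraries. Labelled Flox_1 to Flox_3 lay above the WT libraries and labelled Flox_4 below them (log2 fold change 0.041, SE 0.036, edgeR FDR = 0.767). Acadm, the medium-chain dehydrogenase, was at 334, 326, 357 and 329 CPM over the WT libraries and 356, 372, 354 and 304 CPM over the labelled Flox libraries, again with labelled Flox_4 the lowest of the 8 (log2 fold change 0.043, SE 0.054, edgeR FDR = 0.858). Acads, which acts on short chains, had a log2 fold change of 0.025 (SE 0.046).

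Hadha, the subunit of the trifunctional protein that carries hydratase and dehydrogenase activity, was at 543, 557, 561 and 539.8 CPM in WT_1 to WT_4 and 549, 577, 554 and 499 CPM in labelled Flox_1 to Flox_4. WT values sat inside the labelled Flox range (log2 fold change -0.014, SE 0.041, edgeR FDR = 0.952). Its thiolase partner Hadhb had a log2 fold change of 0.018 (SE 0.044). Among the enzymes of shorter chains, the hydratase Echs1 was at -0.039 (SE 0.037), the dehydrogenase Hadh at 0.0081 (SE 0.040) and Acat1 at -0.0076 (SE 0.038) on the log2 fold change scale. Acaa2 had the highest value of the 13, from 346 ± 5.69 CPM (SD, n = 4) in WT to 366 ± 32.7 CPM (SD, n = 4) in labelled Flox libraries (log2 fold change 0.081, SE 0.053, edgeR FDR = 0.647). By library it was at 338, 349, 351 and 346 CPM in WT_1 to WT_4 and 379, 390.1, 377 and 318 CPM in labelled Flox_1 to Flox_4, so 3 labelled Flox libraries exceeded all WT libraries and labelled Flox_4 fell short of all. The auxiliary enzymes for unsaturated chains, the isomerases Eci1 and Eci2 and the reductase Decr1, had log2 fold changes of 0.031, -0.022 and 0.033. All 3 had an SE of at most 0.045.

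Electrons from the dehydrogenases pass to the flavoprotein subunits Etfa and Etfb and then, through the oxidoreductase Etfdh, to ubiquinone. The median over these 3 genes was -0.0042, and 0 were called. Etfdh was at 226, 227, 228 and 223 CPM in WT_1 to WT_4 (SD 2.03, n = 4) and at 227, 228, 238 and 208 CPM in labelled Flox_1 to Flox_4. The labelled Flox libraries enclosed the WT values, with Flox_3 highest and Flox_4 lowest (log2 fold change -0.0042, SE 0.039, edgeR FDR = 0.988). Etfa and Etfb, which form a dimer, had log2 fold changes of 0.033 (SE 0.044) and -0.056 (SE 0.049). Exons of Etfb share 53.0% of their bases with Gm45233 on the same strand.

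The regulators had a median log2 fold change of 0.062 over 7 genes, 5 above 0 and 2 below, with 0 called. Ppargc1a, which encodes PGC-1alpha, was at 137, 127, 142 and 134 CPM in WT_1 to WT_4 and 146, 140.3, 148 and 134 CPM in labelled Flox_1 to Flox_4. The groups overlapped (log2 fold change 0.073, SE 0.042, edgeR FDR = 0.588). Ppargc1b, encoding PGC-1beta, was at 25.2, 21.5, 28.5 and 25.9 CPM over the WT libraries and 32.1, 27.6, 29.2 and 24.4 CPM over the labelled Flox libraries. It had the largest upward estimate of the 41 members but also a wide spread, with WT_2 lowest and labelled Flox_1 highest (log2 fold change 0.17, SE 0.088, edgeR FDR = 0.550). Its log2 fold change without WT_2 was 0.098. Ppara, the PPAR of oxidative tissues, was at 12.3, 11.0, 13.9 and 14.0 CPM over the WT libraries and 12.4, 13.5, 12.6 and 10.7 CPM over the labelled Flox libraries. The groups overlapped over nearly their whole range (log2 fold change -0.054, SE 0.094, edgeR FDR = 0.903). Ppard, the more widely expressed PPAR, had a log2 fold change of -0.029 (SE 0.048).

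Of the estrogen-related receptors, Esrra was at 83.9, 78.7, 81.8 and 85.4 CPM in WT_1 to WT_4 and 87.1, 89.3, 85.5 and 78.4 CPM in labelled Flox_1 to Flox_4. Labelled Flox_1 to Flox_3 stood at or above the WT libraries and Flox_4 at the low end (log2 fold change 0.048, SE 0.041, edgeR FDR = 0.760). Esrrg was at 62.2, 64.6, 57.2 and 61.3 CPM over the WT libraries and 61.8, 62.5, 69.0 and 62.6 CPM over the labelled Flox libraries, with Flox_3 apart from the other three of its group (log2 fold change 0.062, SE 0.045, edgeR FDR = 0.693). Esrrb, at chr12:86361117-86521628 (GRCm38) and better known from pluripotent and placental cells, was at 13.9, 13.9, 14.0 and 13.4 CPM over the WT libraries and 14.1, 14.1, 15.1 and 15.4 CPM over the labelled Flox libraries. Every labelled Flox library was above every WT library, though by a small margin. The difference was 0.088 on the log2 scale (SE 0.061, unadjusted p = 0.170, edgeR FDR = 0.664). All 3 receptors had estimates above 0, and none passed the test.

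Among genes of fuel choice and uncoupling, the median was 0.047 over the 4 tested, with 0 called. Pdk4, the kinase that restrains pyruvate dehydrogenase and so spares glucose, was at 59.3, 62.0, 54.1 and 59.6 CPM in WT_1 to WT_4 and 57.7, 63.6, 66.6 and 56.7 CPM in labelled Flox_1 to Flox_4. The groups overlapped (log2 fold change 0.061, SE 0.055, edgeR FDR = 0.773). Acot2, a mitochondrial acyl-CoA thioesterase at chr12:83987861-83993873 (GRCm38), was at 53.9, 55.0, 56.8 and 57.0 CPM over the WT libraries and 59.7, 59.8, 69.5 and 56.3 CPM over the labelled Flox libraries. Labelled Flox_3 was the highest and labelled Flox_4 lay among the WT values (log2 fold change 0.14, SE 0.054, edgeR FDR = 0.365, unadjusted p = 0.0219). Without labelled Flox_3 the log2 fold change of Acot2 was 0.076. Acot2 belongs to a cluster of close paralogs. Its expected counts were not whole numbers in any of the libraries, as happens where RSEM divides reads between genes. The same held for other members, Lpl among them, so this does not set Acot2 apart.

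Ucp2, an uncoupling protein found in many cell types, was at 74.7, 90.7, 86.6 and 92.1 CPM in WT_1 to WT_4 and 77.8, 73.7, 77.1 and 87.5 CPM in labelled Flox_1 to Flox_4. WT_1 lay among the labelled Flox values and labelled Flox_4 among the WT values (log2 fold change -0.13, SE 0.064, edgeR FDR = 0.535). Ucp3 held only 2 to 5 expected counts a library, or 0.185, 0.221, 0.0869 and 0.220 CPM over the WT libraries and 0.202, 0.210, 0.233 and 0.118 CPM over the labelled Flox libraries. At this depth no difference of Ucp3 could be detected. Mlycd, which removes the malonyl-CoA that inhibits carnitine palmitoyltransferase, had a log2 fold change of 0.033 (SE 0.069).

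The lipid droplet genes all had estimates below 0, with a median of -0.081 over 3 genes and 0 called. Plin5 was at 0.509, 0.839, 0.739 and 0.571 CPM in WT_1 to WT_4 and 0.506, 0.545, 0.606 and 0.353 CPM in labelled Flox_1 to Flox_4. The groups overlapped, and the downward estimate, the largest of the 41, came with the largest error (log2 fold change -0.38, SE 0.29, edgeR FDR = 0.714). Pnpla2, the triglyceride lipase ATGL, had a log2 fold change of -0.019 (SE 0.044) and Dgat2, which makes triglyceride, -0.081 (SE 0.080).

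**Figure D3:**
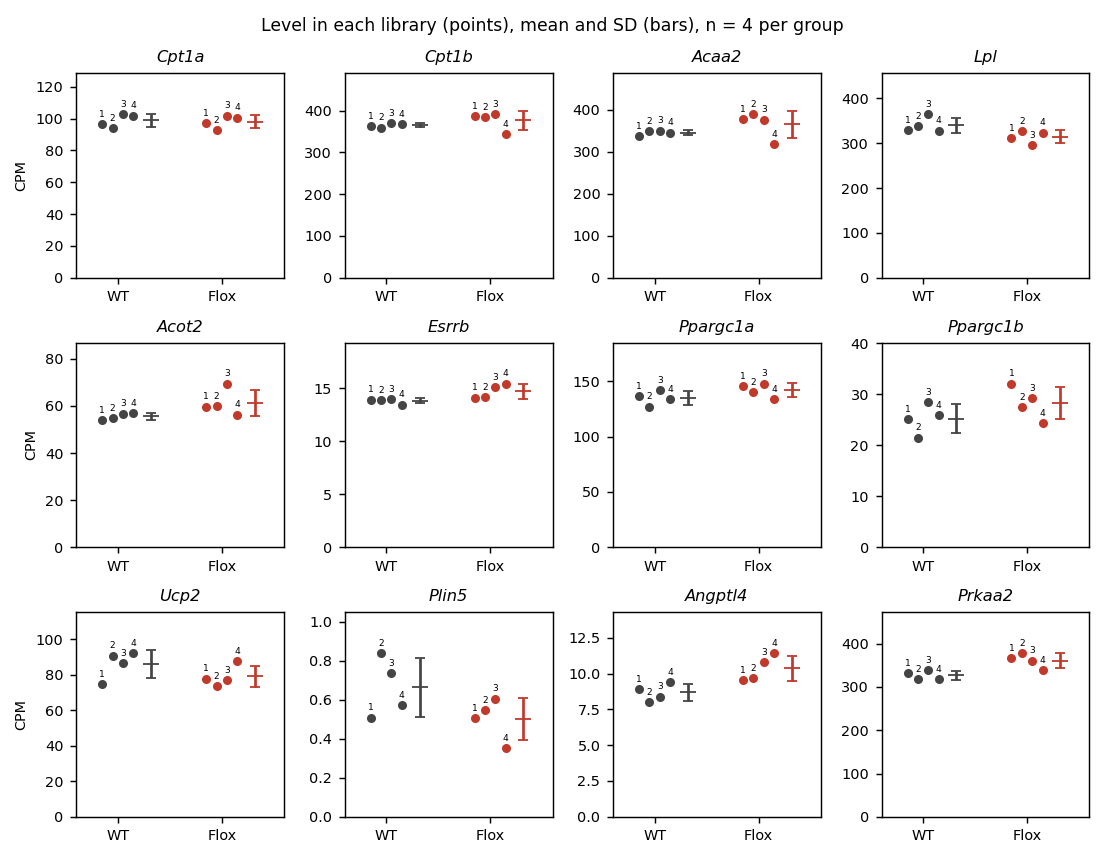
CPM of 12 genes in each library (points numbered by replicate), with the group mean and SD (bars), for WT (grey) and labelled Flox (red), each axis starting at 0. Lpl lies lower and Esrrb and Angptl4 higher in every labelled Flox library than in any WT library, and labelled Flox_4 lies apart from its group for Cpt1b and Acaa2.

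The library labelled Flox_4 stood apart for most of the set. It was the lowest of the 8 for 25 of the 41 members, where 15.9% of all tested genes had their lowest value there. The median deviation of the members from their mean log2 level was -0.10 in labelled Flox_4 and between -0.021 and 0.052 in the other 7 libraries. Labelled Flox_2 was the highest for 15 members, but the share of all tested genes that were highest there was not computed. By role, the median deviation of labelled Flox_4 was the lowest of the 8 libraries in the beta-oxidation enzymes (-0.11) and the flavoprotein group (-0.13). It was also the lowest in the carnitine shuttle (-0.11), activation (-0.089), fuel choice and uncoupling (-0.064) and the lipid droplet genes (-0.10). It was not the lowest in the regulators, where WT_2 was at -0.088 and labelled Flox_4 at -0.046, nor in uptake and delivery, where labelled Flox_3 was at -0.078 and labelled Flox_4 at -0.069. Labelled Flox_4 also had the lowest cardiomyocyte sum, 53357 CPM against 54498 to 60464 in the others. Its mitochondrially encoded transcripts made up 5.68% of counts against 6.06% to 6.41%, and its erythroid sum was 10012 CPM against 4295 to 9396. Its macrophage sum of 161 CPM was also the highest, and its total count the lowest. The part of these measures in the members' levels was not tested.

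**Figure D4:**
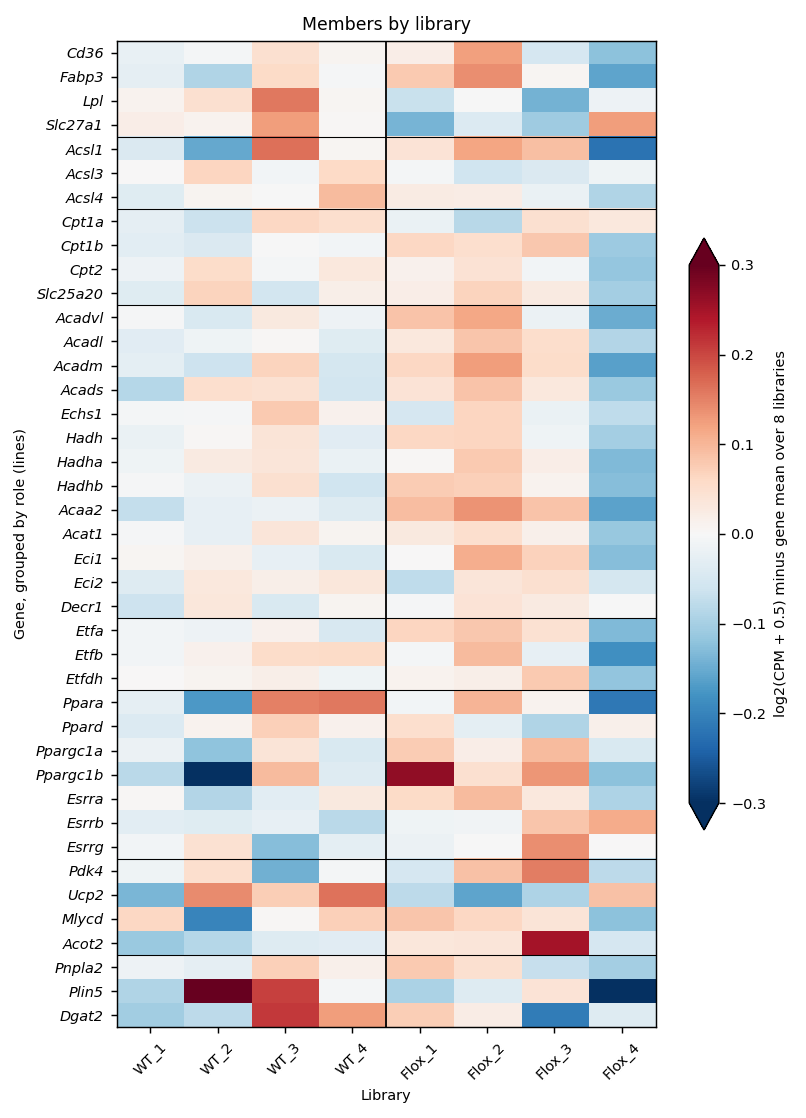
Deviation of each tested member (rows, by role) in each library (columns) from its mean over the 8 libraries, on the log2(CPM + 0.5) scale, where colours saturate at 0.3 in either direction. The column of labelled Flox_4 is blue for most genes, as the lowest library for 25 of 41 members, while the other 7 columns are mixed.

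Without labelled Flox_4, the estimates moved upward. That library was the lowest for 25 of the 41 members, so leaving it out raises the estimates of those members. The counts that follow describe this choice and are not separate evidence of a difference. The members also shifted together in that library, so they are not independent results. The members' median became 0.039, with 28 above 0 and 13 below, and 14 of 41 (34.1%) had an unadjusted p below 0.05, 11 higher and 3 lower, against 12.6% of all tested genes (6.02% higher and 6.55% lower). The 11 were Cpt1b, Acadl, Acadm, Acaa2, Eci1, Etfa, Fabp3, Ppargc1a, Ppargc1b, Esrra and Acot2, and the 3 were Lpl, Slc27a1 and Ucp2. Acaa2 was then called higher (log2 fold change 0.14, SE 0.029, edgeR FDR = 0.0478, over all alternatives 0.0478 to 0.968), as 1 of 41 members, where 0.911% of all genes passed and 0.391% passed as higher. Cpt1b had a log2 fold change of 0.086 (SE 0.028, edgeR FDR = 0.216) and Acot2 of 0.18 (SE 0.052, edgeR FDR = 0.154), and neither passed. Leaving out labelled Flox_3 instead left 0 members with an unadjusted p below 0.05. A fit with the cardiomyocyte sum as a covariate gave a median of -0.0078 and 0 calls. With the Y-linked sum as a covariate the median was -0.042, with 10 members above 0 and 31 below, and 0 calls. The side of 0 on which the members' median lay thus changed with the libraries and covariates included.

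**Figure D5:**
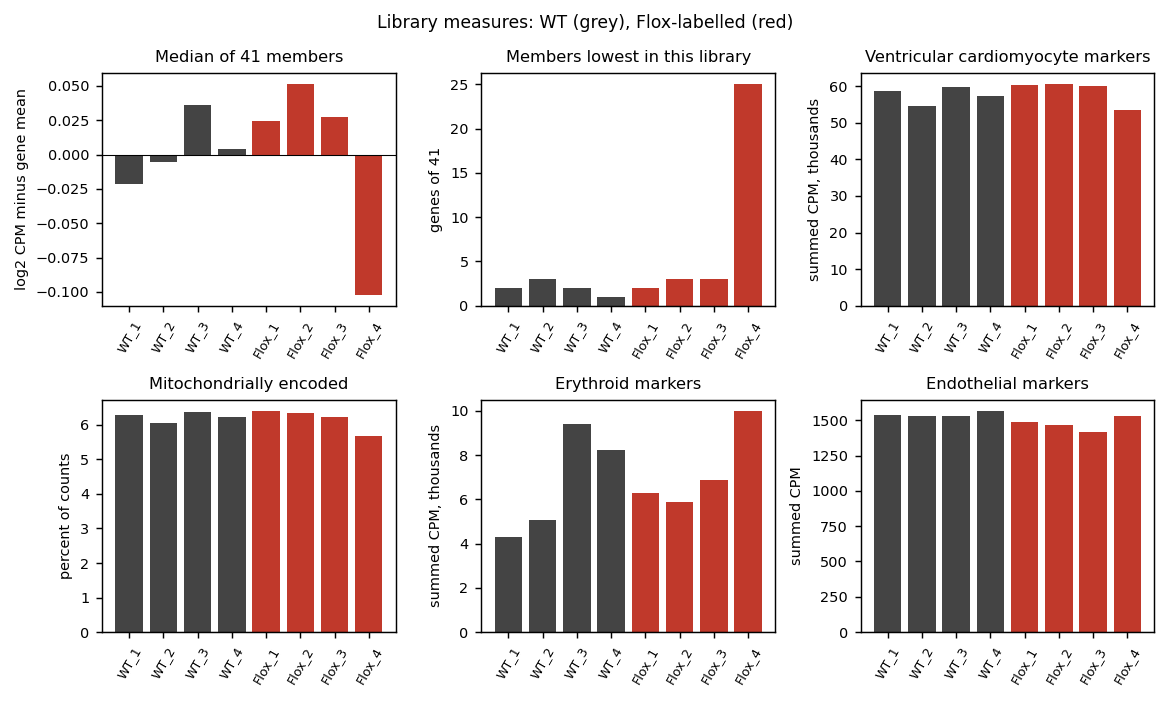
Measures of each library as bars, for WT (grey) and labelled Flox (red), namely the median deviation of the 41 members in log2 CPM, the number of members lowest in that library, summed CPM of cardiomyocyte, erythroid and endothelial markers, and the percent of counts from mitochondrially encoded genes. Labelled Flox_4 has the lowest member median at -0.10, is lowest for 25 members, and also has the lowest cardiomyocyte and mitochondrial and the highest erythroid values.

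Of 83 further genes of the same pathways, 81 were tested and 0 called at FDR 0.05, with 40 above 0 and 41 below. At an unadjusted p below 0.05 there were 5 (6.17%), against 10.5% of all tested genes. Those described here are Prkaa2, Angptl4, Tfb2m and Acad12.

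Prkaa2, the catalytic subunit of the energy sensor AMPK that prevails in muscle, was at 331, 319, 339.8 and 319 CPM over the WT libraries and 366, 378, 361 and 338 CPM over the labelled Flox libraries. Labelled Flox_4 lay within the WT range and the other three above it (log2 fold change 0.14, SE 0.038, edgeR FDR = 0.148). It passed 0.05 with DESeq2 (FDR = 0.0192) and without labelled Flox_4, in a range of 0.0192 to 0.503 over all alternatives. Angptl4, a PPAR target that inhibits lipoprotein lipase, was at 8.93, 7.99, 8.39 and 9.40 CPM over the WT libraries and 9.55, 9.69, 10.8 and 11.4 CPM over the labelled Flox libraries. Its groups did not overlap, with higher values in the labelled Flox libraries (log2 fold change 0.25, SE 0.088, edgeR FDR = 0.306). Tfb2m, a mitochondrial transcription factor, had a log2 fold change of 0.12 (SE 0.042, edgeR FDR = 0.334) and the dehydrogenase Acad12 of -0.20 (SE 0.079, edgeR FDR = 0.396).

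By list, the fatty acid handling genes had a median of -0.012 over 38 genes, receptor partners and cofactors 0.00087 over 17, and genes of mitochondrial biogenesis, dynamics and matrix 0.0019 over 26. In the last list the matrix enzymes Cs and Ogdh, the citrate synthase and a subunit of the oxoglutarate dehydrogenase, had log2 fold changes of -0.059 (SE 0.038) and -0.051 (SE 0.030), and the fumarase Fh1 of 0.052 (SE 0.037). The mitochondrial RNA polymerase Polrmt was at 0.068 (SE 0.044) on the same scale. Among the cofactors, the deacetylase Sirt1 had a log2 fold change of 0.094 (SE 0.053), the coactivator Ncoa1 of 0.047 (SE 0.039) and the corepressor Nrip1 of -0.070 (SE 0.064). The lipid droplet coats Plin2 and Plin3 had values of -0.088 (SE 0.042) and -0.080 (SE 0.040) as log2 fold changes. None of these genes passed the test.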

How the data were processed

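Heart ventricle RNA of 8 mouse libraries (4 WT, 4 labelled Nrg1flox;Cdh5-CreERT2) was compared. The authors deposited expected counts per Ensembl gene, which are estimates that split a multi-gene read among its candidate genes. The submitters' processing notes name cutadapt, RSEM 1.3.1 and GRCm38, and the aligner is not given in the sources used here. Of all values, 18.1% were not whole, and expected counts were rounded. Symbols came from GENCODE M21, which matched 53274 of 53465 identifiers, and overlaps, lengths and positions came from the same annotation.

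Genes were filtered with filterByExpr, scaled with TMM and tested two-sided by quasi-likelihood (glmQLFit, glmQLFTest) in edgeR 4.0.16 and R 4.3.3, without covariates. P-values were adjusted by Benjamini-Hochberg across every tested gene, with a threshold of 0.05 on the FDR. Intervals are 95% confidence intervals. Ratios of gene pairs were compared with exact permutation tests (scipy 1.17.1). CPM values are TMM-scaled. The fits were tested on simulated data.

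Values by library are given for 22 members fixed by name and for members with an unadjusted p below 0.05 or groups that do not overlap. Acaa2 was added after its values were seen. For the further genes, up to 5 a list with the smallest p are named. Some of these genes are not reported here. The members, the further gene lists and the marker lists were chosen with earlier results of these data known. Marker lists covered ventricular and atrial cardiomyocyte, endothelial, fibroblast, erythroid, macrophage, smooth muscle, hepatocyte and adipocyte genes. Of these, fibroblast genes summed to 5499 to 6492 CPM in WT and 5306 to 6425 CPM in labelled Flox libraries, smooth muscle genes to 1646 to 1733 and 1738 to 1830.1 CPM, erythroid genes to 4295 to 9396 and 5877 to 10012 CPM, and macrophage genes to 100.1 to 143 and 109.9 to 161 CPM.

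As alternatives, DESeq2 1.42.0, limma voom 3.58.1 and the edgeR likelihood ratio test were run. Scaling was changed to RLE, upper quartile or total, and filtering to none or a minimum of 1 CPM in 4 or more libraries. Each library was left out in turn, and the replicate number as a block and the Y-linked sum as a covariate were fitted. Composition genes (globin, mitochondrially encoded, Xist and Y-chromosome genes) were removed in a further fit. A GC and length correction (lowess span 0.3) and FDR 0.1 and 0.01 were also applied. The cardiomyocyte covariate was chosen after seeing the data.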

Additional observations from a re-analysis of the deposited data

Results flagged for a closer look

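In 3 of the 120 groups of 4 values examined, 1 library was farther from the other 3 than Dixon's test allows at its 95% level. Chance flags about 1 group in 20, which would be 6 of 120, so the number of such cases is not above what chance gives. Slc27a1 was at 19.3 CPM in WT_3 and at 17.7 to 17.9 CPM in the other WT libraries. Cpt1b was at 343 CPM in labelled Flox_4 and at 383 to 391 CPM in the other labelled Flox libraries. Esrrg was at 69.0 CPM in labelled Flox_3 and at 61.8 to 62.6 CPM in the rest of its group.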

How the results depend on the processing

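The count of members at FDR 0.05 was 0 in all alternatives except 1: it ran from 0 to 1 when each library was left out in turn (higher members 0 to 1, with Acaa2 the 1, without labelled Flox_4). Over 860 combinations of a member and an alternative, 1 had an FDR below 0.05. The estimate kept its sign under all 21 alternatives that refitted the genes (20 for Plin5) for 19 members and changed sign under at least 1 for 22. Among all tested genes, 81 were called in the quasi-likelihood test, against 338 with no filter, 242 with the likelihood ratio test, 198 with DESeq2, 190 at FDR 0.1, 3 at FDR 0.01, 16 with the Y-linked covariate and 11 to 142 with 1 library left out. For the further pathway genes the count of 0 became 1 with no filter, 1 with the likelihood ratio test, 2 with DESeq2, 1 at FDR 0.1, and 0 to 2 with 1 library left out. The cause of these changes was not tested. The groups share replicate numbers, but deviations of same-numbered libraries correlated at 0.0998, 0.0474, 0.0447 and 0.121, not all above 0.1, so the libraries were taken to share only a number, although each correlated best with its own number (other pairs -0.0877 to 0.0195). Under the replicate block, 93 genes, 0 members and 0 further pathway genes were called, with a member median of 0.0066. Members with an unadjusted edgeR p below 0.05 numbered 5 under the block and 2 without it, against 1737 and 1622 of all tested genes. Depth limits Ucp3 and Plin5.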
